A study of Mus musculus with 2 samples.

Results

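The STAT transcription factors Stat2, Stat3, Stat4, Stat5a, Stat5b and Stat6 were examined in mouse splenic T cells. All non-control probes whose transcript accession names these genes were taken, which gave 9 probes for 6 genes, out of 41174 probes and 17176 named genes on the array. The rule itself uses the gene names and no measured value, although earlier results of these data were known when the genes were chosen. The groups were CD8+ cytotoxic T cells and CD4+ helper T cells, both described as sorted splenocytes of wild-type C57B6 mice, with no treatment other than the sort given in the labels. Each group was 1 one-colour Cy3 Agilent array, so there were no replicates, nothing could be tested between the groups, and every difference lacks a replicate check. The sources used here do not give the number or age of the mice, or the surface markers of the sort.

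STAT proteins wait in the cytoplasm in an inactive form. When a cytokine binds its receptor, the JAK kinases bound to that receptor phosphorylate it, STATs dock there, are phosphorylated in turn, pair up and move to the nucleus, where they switch on target genes. Each STAT serves its own set of cytokines: STAT2 type I interferon, STAT3 interleukins 6 and 21, STAT4 interleukin 12, STAT5A and STAT5B interleukins 2 and 7, and STAT6 interleukin 4. Because STAT activity is set by phosphorylation, an mRNA level shows how much message was present and not how active the protein was.

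Stat2 and Stat4 were the 2 members with a motif match just before a transcription start, and Stat4 was also the member furthest apart between the arrays, so their upstream sequences are shown. The 250 bases before each RefSeq transcription start (assembly GRCm38.p6) were available for all 6 genes in 9 windows. They were searched on both strands for the core of the interferon-stimulated response element (TTTC, any 2 bases, TTTC). They were also searched for the STAT-binding GAS motif TTCNNNGAA and for its longer form with 4 free bases between TTC and GAA, a spacing that STAT6 is known to prefer. Of all 32851 such windows in the table, 2.98% hold the interferon element core, 7.02% the GAS motif and 5.85% its longer form. Capitals mark the matches, and the lines are read 5′ to 3′ on the strand of the gene.
Stat2 (chr10:128270248-128270497, plus strand): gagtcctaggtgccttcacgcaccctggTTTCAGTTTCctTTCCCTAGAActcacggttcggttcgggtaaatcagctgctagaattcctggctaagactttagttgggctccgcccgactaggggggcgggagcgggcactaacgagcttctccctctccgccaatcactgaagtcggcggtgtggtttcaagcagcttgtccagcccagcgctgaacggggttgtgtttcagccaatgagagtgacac
Stat4 (chr1:52007990-52008239, plus strand): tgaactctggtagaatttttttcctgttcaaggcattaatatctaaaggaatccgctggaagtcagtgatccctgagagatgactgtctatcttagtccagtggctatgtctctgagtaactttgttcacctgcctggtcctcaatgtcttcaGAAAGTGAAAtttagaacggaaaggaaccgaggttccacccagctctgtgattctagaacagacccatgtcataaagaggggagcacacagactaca
The Stat2 window held an interferon element core at bases -222 to -213 from the start and, without overlap, the longer GAS form at -210 to -201. The downstream start of Stat4 held the interferon element core on the opposite strand at -97 to -88. The other 7 windows held none of these letters, which says nothing about binding elsewhere.

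Stat5a and Stat5b are near-identical paralogs that lie next to each other on chromosome 11, with Stat3 next to Stat5a and 0 genes listed between either pair. Of 33 alignments between windows of different STAT genes, a pair of Stat5a and Stat5b windows scored highest, and it is shown because these neighbours had differences on opposite sides of 0. Both windows of this pair lie before the more downstream of the listed starts of their gene. Over 90 aligned bases 74 (82.2%) were identical, with a longest unbroken run of 16. Capitals mark the identical bases.
Stat5a (chr11:100860381-100860472, plus strand): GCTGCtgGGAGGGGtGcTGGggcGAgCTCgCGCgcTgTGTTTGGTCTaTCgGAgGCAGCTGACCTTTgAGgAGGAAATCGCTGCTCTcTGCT
Stat5b (chr11:100822573-100822664, minus strand): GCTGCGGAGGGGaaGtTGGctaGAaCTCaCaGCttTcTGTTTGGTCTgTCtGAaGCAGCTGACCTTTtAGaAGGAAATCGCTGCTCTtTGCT
The probe sequences were not used here, so whether a Stat5a or Stat5b probe also binds the message of its relative is uncertain.

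All 6 STAT genes were well above background on both arrays, by all 9 of their probes, and no probe was saturated. Stat4 had the largest difference, 1.76-fold higher in CD8+ cells by 1 spot, and the other 5 lay within 1.2-fold of equal between the cell types. None of the 6 reached 2-fold in either direction. Of the 11961 genes measured above background in both cell types, 1.96% were 2-fold or more higher in CD8+ cells and 3.83% in CD4+ cells, 5.79% in all. At a 1.5-fold threshold 1 STAT gene, Stat4, was higher in CD8+ cells, against 5.53% of all genes, and 0 were higher in CD4+ cells, against 8.54%. Of all these genes, 8.27% had a difference at least as far from 0 as that of Stat4. The median log2 difference of the STAT genes, CD8+ array minus CD4+ array throughout, was 0.01, and that of all genes was 0.02. In RNA of pooled cells, a higher share of cells that use a gene and more message per cell cannot be told apart.

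Signals are given in the scanner's linear units before scaling, with the software's own error estimate of a spot after ±, and the log2 differences are given after each array was scaled to its 75th percentile. The yardstick for a difference is technical: its pooled SD over probes of the same gene was 0.23 (3972 genes), and over repeated spots of the same probe it was 0.16 (153 probes). Signals of different probes depend on the probe, and those of different genes are not set against each other, apart from the marker sums below. Those sums add signals before scaling, so the brightest probes weigh most in them.

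**Figure D1:**
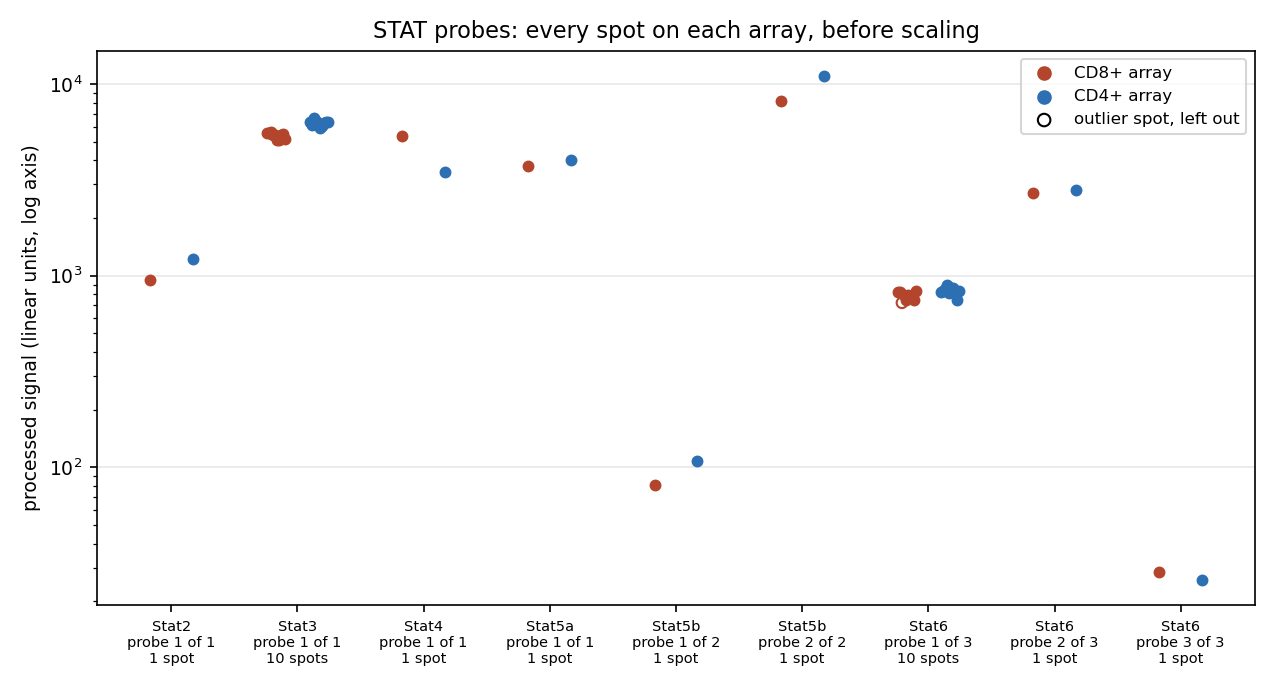
Processed signal (linear units, log axis) of every spot of the 9 STAT probes, CD8+ array left and CD4+ array right of each pair. Before scaling Stat4 is higher on the CD8+ array (5387 against 3458), and the third Stat6 probe is slightly higher there (28.3 against 25.8), while the other probes average lower on it.

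Stat4 transmits interleukin 12 signals and drives interferon gamma production in type 1 helper and cytotoxic cells. Its probe, with 1 spot, read 5387 ± 539 on the CD8+ array and 3458 ± 346 on the CD4+ array. After scaling, the log2 difference was 0.82, or 3.53 times the SD between probes of a gene. The probe stood at percentile 94.3 of all probes on the CD8+ array and at 91.3 on the CD4+ array. Of the 11961 genes measured on both arrays, 8.27% had a difference as far from 0 in either direction, and 362 (3.03%) had one at least as high. A single spot measured Stat4, so no other probe bears on this value.

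Stat5b and Stat5a carry the signals of interleukins 2 and 7, which keep T cells alive and make them divide. The brighter Stat5b probe read 8163 ± 816 on the CD8+ array and 11029.9 ± 1103 on the CD4+ array, a log2 difference of -0.26 (1.20-fold higher in CD4+ cells). The other Stat5b probe, much dimmer at 80.5 ± 8.64 on the CD8+ array and 108 ± 11.2 on the CD4+ array, gave -0.25. The probes differed by less than the SD between probes of a gene, and 39.0% of all genes had a difference as far from 0. Stat5a, with 1 probe, read 3729.6 ± 373 on the CD8+ array and 4025 ± 402 on the CD4+ array, a log2 difference of 0.07. The neighbouring paralogs thus lay on opposite sides of 0, Stat5a within 1 SD between probes and Stat5b slightly beyond it.

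Stat3 serves the interleukin 6 family and interleukin 21 and is needed for type 17 and follicular helper cells. Its probe was printed at 10 spots, which read 5395 ± 200.1 (SD over spots) on the CD8+ array and 6276 ± 211 on the CD4+ array. The spots ran from 5080.0 to 5639 on the CD8+ array and from 5922 to 6679 on the CD4+ array, and the ranges did not overlap before scaling. After scaling, the mean difference was -0.04 ± 0.04 (SD over 10 spots) on the log2 scale, and 1 of the 10 spots was higher on the CD8+ array. The scaling moved Stat3 because the arrays differed in overall brightness, with 75th percentiles of 449.9 on the CD8+ array and 508 on the CD4+ array. The spots are repeats on a single array for each cell type and not biological replicates.

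Stat6 carries interleukin 4 signals and drives type 2 helper differentiation. Its brightest probe, used for the gene, read 2697 ± 269.7 on the CD8+ array and 2797 ± 279.7 on the CD4+ array, a log2 difference of 0.12. A probe with 10 spots read 789.8 ± 32.6 (SD over 9 spots, 1 being left out as an outlier) on the CD8+ array and 835 ± 39.1 (SD over 10 spots) on the CD4+ array. The kept spots ran from 744 to 834 on the CD8+ array and from 746 to 896 on the CD4+ array, so the arrays overlapped. Its mean spot difference was 0.10 ± 0.07 over the 9 spots kept on both arrays, of which 8 were higher on the CD8+ array after scaling. The third probe was dim, with 28.3 ± 4.36 on the CD8+ array and 25.8 ± 4.12 on the CD4+ array, and it gave 0.31. The Stat6 probes thus had the same sign and differed among themselves by less than the SD between probes.

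Stat2, the STAT that joins with IRF9 in the complex that turns on interferon-stimulated genes, read 956 ± 95.6 on the CD8+ array and 1221 ± 122 on the CD4+ array with 1 probe. The log2 difference was -0.18, within 1 SD between probes of a gene. In rank, Stat2 stood at percentile 81.9 on the CD8+ array and 83.3 on the CD4+ array. Stat3 stood at 94.3 and 94.6, Stat5a at 92.3 and 92.2, the brighter Stat5b probe at 96.2 and 96.9 and the brightest Stat6 probe at 90.3 and 89.9, on the CD8+ and the CD4+ array in that order. The ranks of these 5 probes moved by less than 2 percentile points, while that of Stat4 was 2.96 points higher on the CD8+ array.

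**Figure D2:**
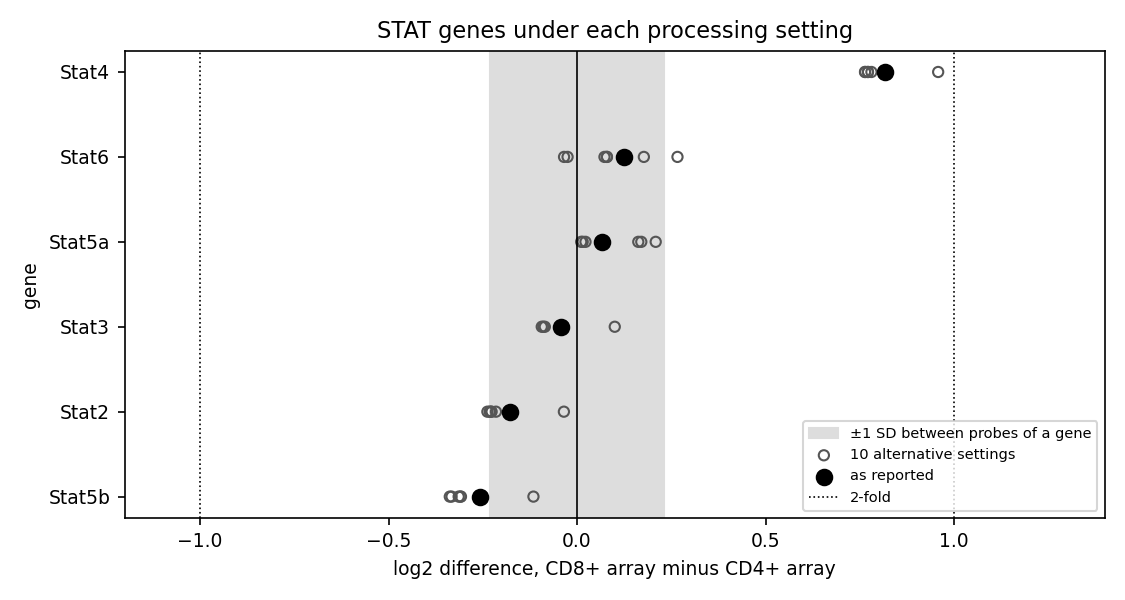
Log2 difference, CD8+ array minus CD4+ array, of the 6 STAT genes as reported (filled) and under 10 alternative processing settings (open), with ±1 SD between probes of a gene (0.23) in grey and 2-fold as dotted lines. Stat4 stays between 0.76 and 0.96, while Stat3 and Stat6 lie on either side of 0 depending on the setting.

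The order from the highest to the lowest difference was Stat4 at 0.82, Stat6 at 0.12, Stat5a at 0.07, Stat3 at -0.04, Stat2 at -0.18 and Stat5b at -0.26. In this order the neighbours from Stat6 down to Stat5b each differed by less than the SD of 0.23, and only Stat4 was separated from its neighbour by more. Under the settings tried, Stat4 ran from 1.70-fold to 1.94-fold higher in CD8+ cells and did not reach 2-fold. Stat3 was positive at 0.10 with scaling to the array medians, and Stat6 was negative at -0.03 with normexp, a model-based background correction, and with the authors' series values, which are spot brightness with no background subtracted. Stat2 and Stat5b were negative and Stat5a positive in all 11 settings, the reported one included. Not all settings could move these values. Dropping the filter on dim probes, leaving out saturated probes and keeping outlier spots returned the reported value of every STAT gene. Averaging over probes could change only Stat5b and Stat6, which have several probes.

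With 2 arrays, likeness of pattern can rest on the difference alone. Among 88 genes of the JAK-STAT lists measured on both arrays, the nearest difference to that of Stat4 was that of the interferon-stimulated gene Ifit3, at 0.72. The nearest to Stat2 was the phosphatase gene Ptpn11 at -0.18, to Stat3 the interferon receptor gene Ifnar1 at -0.05, and to Stat5a the inhibitor gene Socs6 at 0.06. The nearest to Stat5b was Rsad2, an antiviral gene, at -0.26, and to Stat6 the inhibitor gene Socs1 at 0.13.

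The surface markers went with the labels: Cd8a had a log2 difference of 6.72 and Cd4 of -2.04, and all 8 T cell markers were above background on both. Markers of other cell types were above background too. NK cell markers summed to 4182 on the CD8+ array and 10744 on the CD4+ array, before scaling, with 3 of 4 measured members 2-fold or more higher in CD4+ cells, opposite in direction to Stat4. Most of that sum was Tyrobp, also a myeloid gene, with 3997 on the CD8+ array and 10166 on the CD4+ array, and Klrc1 went the other way at 0.47. Dendritic cell markers summed to 1055 on the CD8+ array and 2968 on the CD4+ array (3 of 5). Among them Xcr1 went the other way at 0.35, and its other probe gave 3.03. Plasma cell markers summed to 1423 and 2681 in that order (2 of 5). B cell markers summed to 13406 on the CD8+ array and 9797 on the CD4+ array, with 8 of 8 higher in CD8+ cells and 0 by 2-fold, in the direction of Stat4. Platelet markers summed to 378 and 283 in that order, with 4 of 5 higher in CD8+ cells. Monocyte and macrophage markers summed to 37309.6 on the CD8+ array and 46758 on the CD4+ array (1 of 6 2-fold higher in CD4+ cells), and 0 of 3 measured neutrophil and 0 of 3 erythroid markers were 2-fold apart. On neither array were Klre1 and Elane above background, and none of the marker probes was listed at 0. The part of these cells in the STAT values or in their target lists was not tested.

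The JAK kinases, which phosphorylate the STATs, also lay within 2-fold between the cell types. Jak1, which pairs with most cytokine receptors of T cells, read 29814 on the CD8+ array and 28718.5 on the CD4+ array, a log2 difference of 0.23, and its other probe gave 0.24. Jak3, the partner of the common gamma chain, read 3305 on the CD8+ array and 3240.1 on the CD4+ array, and its 3 probes gave 0.20 to 0.44. Tyk2, which serves the interleukin 12 and type I interferon receptors, read 1106 on the CD8+ array and 883 on the CD4+ array, a difference of 0.50, the largest of the kinases. Jak2 read 2433 on the CD8+ array and 2926 on the CD4+ array by its brighter probe (-0.09), while its dim probe, at 22.7 on the CD8+ array and 43.4 on the CD4+ array, gave -0.76. Jak1, Jak3 and Tyk2 were thus positive and Jak2 negative. Of these 4 kinases, 0 reached 2-fold, against 5.79% of the 11961 genes above background on both arrays.

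The counts for the lists around the STATs include genes with a bound, and over the 13062 genes above background on at least 1 array 2.24% were 2-fold or more higher in CD8+ cells and 4.66% in CD4+ cells. Some genes, such as Il2ra, Socs2 and Cish, stand in more than 1 list. Of 21 measured receptors that signal through STATs (23 listed), 0 were 2-fold higher in CD8+ cells and 2 were in CD4+ cells. Il2ra, the high-affinity interleukin 2 receptor chain, was not well above background on the CD8+ array (3.26) and read 133 on the CD4+ array, at least 8.01-fold higher there. Averaging its probes gave at least 3.48-fold, and normexp background correction at least 2.48-fold. Lifr, the leukemia inhibitory factor receptor, read 21.1 on the CD8+ array and 55.3 on the CD4+ array (2.32-fold). It was 1.75-fold when its probes were averaged, 1.43-fold with the series values and 1.28-fold with normexp.

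The other receptors above background on both arrays lay within 2-fold. Il9r and Il23r, above background on the CD4+ array alone, had bounds under 2-fold, which set no upper limit on their difference. Il13ra1, an interleukin 13 receptor chain, read 46.0 on the CD8+ array and 91.0 on the CD4+ array (-0.81). The next receptors are named, after their values were seen, for their place upstream of a STAT. Il27ra, the interleukin 27 receptor, had the highest value of the receptors at 0.68, with 5461 on the CD8+ array and 3859 on the CD4+ array. Il12rb1, a chain of the interleukin 12 receptor that feeds STAT4, had -0.25, and Il12rb2, the other chain, was not well above background on either array. Il2rb and Il2rg, which feed STAT5, had 0.47 and 0.34, and Il4ra, which feeds STAT6, had 0.02.

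Of the inhibitors of the pathway, 16 lay within 2-fold, and the feedback genes Socs2 and Cish, which STAT5 itself is known to switch on, did not. Of 18 measured members, 0 were 2-fold higher in CD8+ cells, 2 were in CD4+ cells, and the median was 0.03. Socs2 read 48.9 on the CD8+ array and 422 on the CD4+ array, 7.63-fold higher in CD4+ cells (3.85-fold with normexp). Cish read 1475 on the CD8+ array and 8146 on the CD4+ array, 4.89-fold higher there. Stat5a and Stat5b themselves differed by at most 1.20-fold in the same setting. The next largest difference was that of Sh2b3, an adaptor that restrains JAK signalling, at 0.47, with 133 on the CD8+ array and 108 on the CD4+ array. Socs3, the feedback inhibitor of STAT3, had -0.02 (named after its value was seen).

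Of 17 targets of STAT5, 2 were 2-fold or more higher in CD8+ cells and 6 in CD4+ cells. Foxp3, which specifies regulatory T cells, was not well above background on the CD8+ array (5.51) and read 354 on the CD4+ array, at least 21.3-fold higher there (at least 4.14-fold with normexp). Tnfrsf4, the costimulatory receptor OX40, read 1169.8 on the CD8+ array and 8531 on the CD4+ array, 6.45-fold higher there. Tnfrsf9, the costimulatory receptor 4-1BB, was 2.06-fold higher there, but under 2-fold with normexp (1.80), the series values (1.85), median scaling and the mean over probes (1.92). Cish, Socs2 and Il2ra are the other 3. In the opposite direction, Prf1, the pore-forming protein perforin, read 1879 on the CD8+ array and 639 on the CD4+ array, 3.32-fold higher in CD8+ cells. Pim2, a survival kinase, read 2279.7 on the CD8+ array and 906 on the CD4+ array, 2.84-fold higher in CD8+ cells. The median of the list was -0.25, with 7 of the 17 higher in CD8+ cells and 10 in CD4+ cells.

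**Figure D3:**
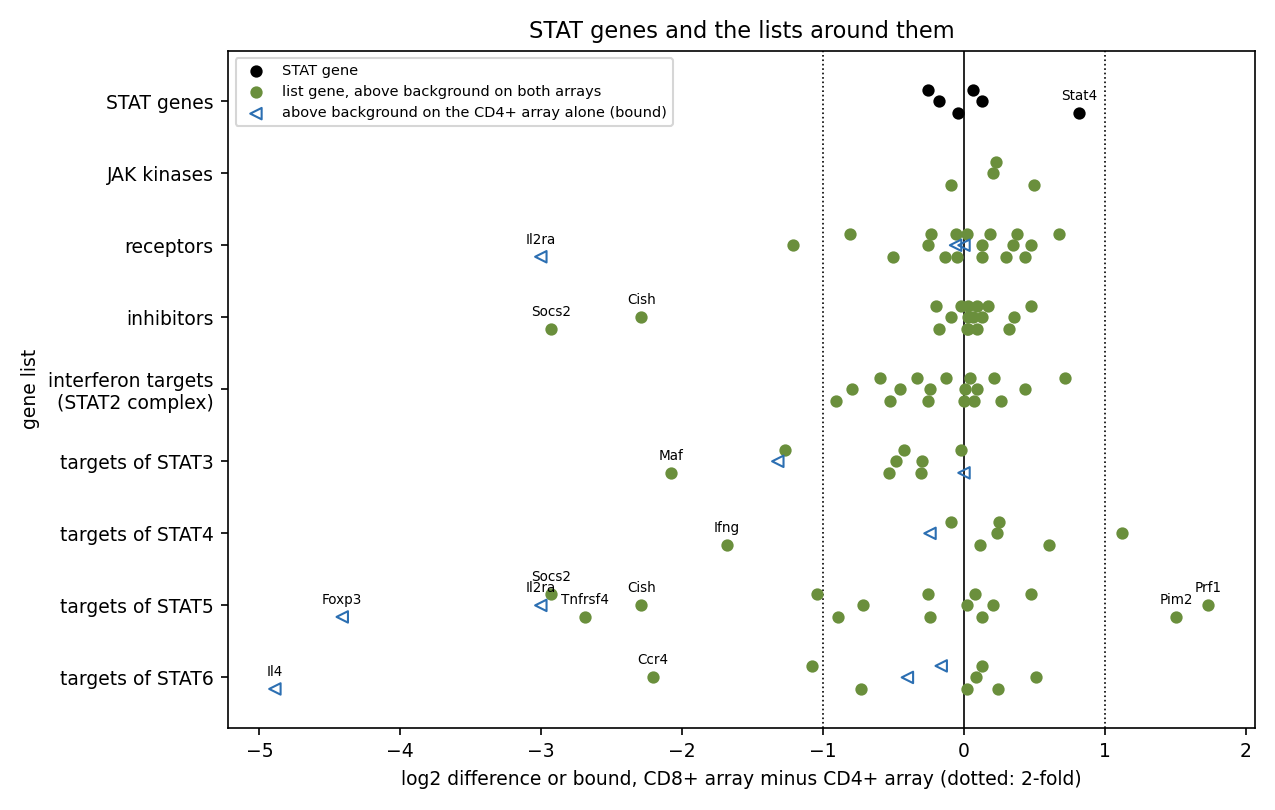
Log2 difference, or bound where a gene was above background on the CD4+ array alone (open triangles), CD8+ array minus CD4+ array, for the 6 STAT genes and 8 lists of related genes, with 1 target of STAT3 not drawn. Of the 6 STAT genes, 0 pass the dotted 2-fold lines, against 5.79% of all genes above background on both arrays. Of the list genes drawn, Il4, Foxp3, Il2ra, Socs2, Tnfrsf4, Cish, Ccr4 and Maf lie beyond -2. In the other direction Prf1, Pim2 and Il18rap lie beyond 1.

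Of 11 measured targets of STAT3, 0 were 2-fold or more higher in CD8+ cells and 4 in CD4+ cells, and the median was -0.48. Maf, a transcription factor of follicular and other helper cells, read 769.6 on the CD8+ array and 3676 on the CD4+ array, 4.23-fold higher there (3.17-fold when its probes were averaged). Rora, a nuclear receptor, was 2.41-fold higher there, with 164 on the CD8+ array and 448 on the CD4+ array. The cytokine gene Il21, with 3.24 and not well above background on the CD8+ array and 41.5 on the CD4+ array, was at least 2.5-fold higher there, but at least 1.41-fold with normexp and at least 1.39-fold with the series values. Stat3 itself had -0.04.

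Of 11 measured targets of STAT6, 0 were 2-fold or more higher in CD8+ cells and 3 in CD4+ cells. Il4, the cytokine that both activates STAT6 and is made by type 2 helper cells, was not well above background on the CD8+ array (4.41) and read 493 on the CD4+ array, at least 29.6-fold higher there (at least 6.82-fold with normexp). Ccr4, a chemokine receptor of type 2 helper and regulatory cells, read 17.3 on the CD8+ array and 90.2 on the CD4+ array, 4.61-fold higher there (1.82-fold with normexp). Gata3, the transcription factor of type 2 helper cells, read 2956 on the CD8+ array and 7057 on the CD4+ array, 2.11-fold higher there (1.91-fold with median scaling). The median of the STAT6 list was -0.16 with bounds and 0.05 over the 8 members measured on both arrays.

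Stat4 was the member with the largest difference, and 8 of its 10 listed targets were measured. Il18rap, an interleukin 18 receptor chain, read 100.4 on the CD8+ array and 52.2 on the CD4+ array, 2.17-fold higher in CD8+ cells, but 1.54-fold with normexp and 1.61-fold with the series values. Ifng, the interferon gamma gene, went the other way, with 223 on the CD8+ array and 809.8 on the CD4+ array, 3.21-fold higher in CD4+ cells. Tbx21, the transcription factor T-bet, read 2698 on the CD8+ array and 2006 on the CD4+ array, a difference of 0.60. The list had 1 member 2-fold or more higher in each cell type and a median of 0.17. Ifng, Il18rap and Tbx21 are also used by NK cells, of whose 4 measured markers 3 were 2-fold or more higher in CD4+ cells, and the part of such cells in these values was not tested.

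Interferon targets of the complex that holds STAT2 were all within 2-fold, with 0 of 18 measured members beyond it in either direction and a median of -0.06. Oas2, an antiviral synthetase, read 275 on the CD8+ array and 585 on the CD4+ array (-0.91). Ifit2, another interferon-induced gene, had -0.80, and Ifit3 had 0.72, so near relatives lay on opposite sides of 0. Irf9, the partner of STAT2, read 3752 on the CD8+ array and 4124 on the CD4+ array, a difference of 0.04 (named after its value was seen).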

How the data were processed

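Total RNA of sorted splenic CD8+ and CD4+ T cells was hybridised to 1 Cy3 array per cell type. The deposited scanner intensity is, per the file headers, from Feature Extraction 10.1.1.1 (the submitters' processing notes name 9.1), background-subtracted and detrended with no scaling between arrays. The intensity of the deposited series values equals the median spot brightness at 45018 of 45018 spots on each array, so it is linear and uncorrected, with medians of 73 (CD8+) and 80 (CD4+). No source used here describes how the authors scaled it.

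From the 43379 non-control spots, control and outlier spots (92 on the CD8+ array and 99 on the CD4+ array) were left out, and the log2 signal was averaged per probe and reduced by each array's 75th percentile. Probes were named by accession through a RefSeq gene table of GRCm38.p6, used for names, neighbours and upstream sequence, while the file headers name build mm9. A gene took its brightest probe, preferring those well above background on both arrays. Each array taken alone, 58.6% of CD8+ and 63.1% of CD4+ spots were well above background. A gene not well above background on 1 array got a bound against the higher of its own level and the lowest level above background there. With 1 array per group there was no test, and precision is limited by that number of arrays. The computation was checked on simulated data, with planted differences larger than that of any STAT gene. They were planted only in genes above background on both arrays. Neither the bounds nor planted differences as small as that of Stat4 were checked. The members and lists were chosen with earlier results of these data known. Named genes were the STATs, the JAK kinases, the list members at least 2-fold apart (filled up to the 3 largest differences) and the nearest genes, with exceptions marked in the text. Of the STAT3 targets this rule names, 1 is not reported here. No covariate was planned or fitted with 2 arrays. Python 3.11.15, numpy 2.4.6, pandas 2.3.3, biopython 1.88, R 4.3.3 and limma 3.58.1 were used.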

Additional observations from a re-analysis of the deposited data

How the results depend on the processing

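The 6 STAT differences and their median (-0.04 to 0.15) moved by less than the SD between probes of a gene under all 10 alternatives: normexp background correction (offset 50), median scaling, the percentile over detected probes, quantile and loess normalization, the series values, the mean over probes, no filter on dim probes, saturated probes left out and outlier spots kept. Some of these alternatives could not move the STAT values. The settings with no filter on dim probes, saturated probes left out and outlier spots kept returned the reported value of every STAT gene. The mean over probes could change only Stat5b and Stat6. A 1.5-fold threshold gave 1 STAT gene higher in CD8+ cells, Stat4 (background 5.53%), and 0 in CD4+ cells (8.54%). Receptors 2-fold or more higher in CD4+ cells were 2 as reported, 1 with the series values, with normexp and with averaged probes, and 5 with no filter on dim probes. The STAT4 targets higher in CD8+ cells were 0 with the series values and with normexp, and those higher in CD4+ cells were 3 with no filter. With no filter 1 inhibitor was higher in CD8+ cells. Of the 18 list genes at least 2-fold apart, 12 stayed so under all 10 alternatives. Over all genes, 234 were 2-fold or more higher in CD8+ cells and 458 in CD4+ cells (33.8% CD8+). Median scaling shifted the median by 0.14 and gave 323 and 366 (46.9%), in that order, normexp 122 and 220, the series values 140 and 269, and no filter 616 and 1277. The dimmest Stat6 probe (28.3 on the CD8+ array and 25.8 on the CD4+ array) is the STAT probe nearest to background. Median scaling subtracts another constant from each array, so it shifts all differences measured on both arrays by the same amount. The setting with no filter also counts genes below background. The cause of the other shifts between settings was not tested. No paired analysis was possible because each group has 1 array.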
